A study of Mus musculus with 82 samples.

Results

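The sites described here were listed for Eomes under both of its tags, GFP and V5, and carried no listed peak of an Eomes-VP16 fusion or of Brachyury. They were the peaks of the Eomes-GFP list (EoGFP) that overlapped an Eomes-V5 peak (EoV5) by at least 1 bp and overlapped no peak of Eomes joined to the VP16 activation domain (EoVP16) and none of Brachyury-GFP (BraGFP). Of 30129 EoGFP peaks on the assembled chromosomes, 6294 met this rule, or 20.9% (95% Wilson interval 20.4 to 21.4). They are called EoVP16-absent sites below. They were chosen by their presence or absence in the 4 measured peak lists, so those overlaps, and the heights and widths that decide whether a peak is listed, are given as descriptions with no test.

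The series comprised 82 mouse samples, of which 12 were ChIP-seq. All cells used here were A2lox.Cre mouse embryonic stem cells knocked out for both Eomes and Brachyury (dKO), grown as embryoid bodies, given activin A at 30 ng/ml, and collected on day 5. Each line also held 1 construct under doxycycline control, and doxycycline was given in every library behind the lists: 2 for EoGFP (anti-GFP), 1 for EoV5 (anti-V5), 1 for EoVP16 (anti-V5) and 2 for BraGFP (anti-GFP). The Eomes in these cells was therefore induced protein, and the labels give neither the number of clones per line nor which stretch of Eomes the VP16 fusion holds. Each construct had a single peak list, so no value below has a replicate error. Intervals of shares and of their differences cover counting error over peaks only. Those of single pileups treat the summit height in 1 library as a count of fragments. They do not allow for sites being picked as the tallest.

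Eomes and Brachyury belong to the T-box family of transcription factors and act in the primitive streak, where cells of the early embryo become mesoderm and definitive endoderm. T-box proteins bind short DNA elements built around the letters AGGTGT. VP16 is a viral domain that recruits the transcription machinery and is fused to DNA-binding factors to make strong activators. Vertebrate promoters fall broadly into those rich in CG dinucleotides (CpG islands), which serve many widely expressed genes, and those poor in CG, which are more often tissue restricted.

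The closest set for comparison was the 10924 EoGFP peaks that overlapped both an EoV5 and an EoVP16 peak and no BraGFP peak. These are called EoVP16-present sites and made up 36.3% of the EoGFP list. Of the other EoGFP peaks, 3301 overlapped EoVP16 alone, 1458 overlapped no other list, 6049 overlapped all 3 other lists, and 2103 overlapped BraGFP without being in all the lists. "Absent" means that no peak was listed. The lists were kept above different minimum pileups, 120 fragments for EoGFP, 60 for EoV5, 36 for EoVP16 and 40 for BraGFP, and the read depths are not given by the files.

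Few EoVP16-absent sites lay at promoters, and the promoters among them were poor in CG. The 4 tallest by EoV5 pileup (fragments stacked at the summit) at a promoter of a coding gene are shown first, to let the base composition be seen. Each sequence is the RefSeq promoter window on GRCm38.p6, 250 bases before to 50 bases after the transcription start, written 5′ to 3′ along the gene, with every CG dinucleotide in capitals. Vmn2r23 (chr6:123702571-123702870, plus strand) encodes a vomeronasal type 2 pheromone receptor, had 1 CG, and had an EoV5 pileup of 825 (95% Poisson interval 769.7 to 883.3). Vmn2r19 (chr6:123308083-123308382, plus strand) is a receptor of the same family, with 2 CG and a pileup of 649 (600.0 to 700.9). The windows of these paralogs matched at 249 of 310 aligned positions (80.3%). Whether reads mapped to more than 1 family member was not tested, so both heights are uncertain. Car12 (chr9:66713436-66713735, plus strand) encodes a membrane carbonic anhydrase, had 9 CG and a pileup of 448 (407.5 to 491.5). Anxa9 (chr3:95307143-95307442, minus strand) encodes an annexin, had 3 CG and 2 copies of AGGTGT, and had a pileup of 447 (406.5 to 490.4).
Vmn2r23: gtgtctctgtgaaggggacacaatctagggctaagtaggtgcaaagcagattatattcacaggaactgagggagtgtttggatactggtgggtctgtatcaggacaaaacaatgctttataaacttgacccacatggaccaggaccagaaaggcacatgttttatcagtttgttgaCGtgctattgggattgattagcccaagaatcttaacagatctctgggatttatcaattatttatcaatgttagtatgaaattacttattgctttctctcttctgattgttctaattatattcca
Vmn2r19: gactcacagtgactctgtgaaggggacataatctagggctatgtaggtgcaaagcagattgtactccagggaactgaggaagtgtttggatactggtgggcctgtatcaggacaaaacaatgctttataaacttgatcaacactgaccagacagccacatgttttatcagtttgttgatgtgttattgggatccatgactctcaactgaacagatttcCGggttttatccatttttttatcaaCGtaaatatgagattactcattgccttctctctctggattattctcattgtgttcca
Car12: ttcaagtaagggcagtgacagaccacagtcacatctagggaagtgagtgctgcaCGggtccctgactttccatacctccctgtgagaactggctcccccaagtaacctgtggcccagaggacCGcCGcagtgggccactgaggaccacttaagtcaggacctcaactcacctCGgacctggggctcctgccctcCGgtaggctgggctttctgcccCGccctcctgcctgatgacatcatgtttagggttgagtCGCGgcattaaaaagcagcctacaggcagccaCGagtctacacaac
Anxa9: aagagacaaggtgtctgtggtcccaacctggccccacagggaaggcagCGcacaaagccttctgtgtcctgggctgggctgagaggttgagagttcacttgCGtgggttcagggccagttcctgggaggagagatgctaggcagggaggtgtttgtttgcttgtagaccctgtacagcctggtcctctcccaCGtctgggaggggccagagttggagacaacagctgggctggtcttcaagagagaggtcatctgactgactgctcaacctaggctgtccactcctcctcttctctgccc

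Beside these stand promoters at EoVP16-present sites. They were taken at the median CG count of that set, 20 per window, and are the 2 tallest such coding promoters by EoV5 pileup. Hdhd3 (chr4:62502151-62502450, minus strand), which encodes a haloacid dehalogenase-like hydrolase protein, had an EoV5 pileup of 307 and an EoVP16 pileup of 135. Abcf2 (chr5:24577418-24577717, minus strand), which encodes an ABC family protein, had an EoV5 pileup of 211 and an EoVP16 pileup of 160. Capitals again mark each CG.
Hdhd3: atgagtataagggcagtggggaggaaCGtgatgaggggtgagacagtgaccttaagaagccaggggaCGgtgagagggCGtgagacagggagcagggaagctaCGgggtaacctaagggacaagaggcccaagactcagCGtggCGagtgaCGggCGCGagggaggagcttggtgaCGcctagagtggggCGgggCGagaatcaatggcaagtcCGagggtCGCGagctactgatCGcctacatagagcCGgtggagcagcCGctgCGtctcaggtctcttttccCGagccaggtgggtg
Abcf2: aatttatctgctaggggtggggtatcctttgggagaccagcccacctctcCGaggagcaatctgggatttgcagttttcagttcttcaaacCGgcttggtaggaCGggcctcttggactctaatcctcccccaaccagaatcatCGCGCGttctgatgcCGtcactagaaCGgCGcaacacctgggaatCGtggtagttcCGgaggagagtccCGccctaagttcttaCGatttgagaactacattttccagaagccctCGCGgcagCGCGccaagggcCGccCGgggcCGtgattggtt

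The tallest promoters of the EoVP16-present set were not all CG-rich. Vps37c, a subunit of the ESCRT-I sorting complex, had the tallest, with an EoV5 pileup of 2216 and 3 CG. The next were Tlr5, a flagellin receptor, with a pileup of 783 and 8 CG, Zfp708, a zinc finger gene, with 779 and 9 CG, Fam110c with 767 and 16 CG, and Bcar3, an adaptor protein, with 760 and 4 CG. The contrast in CG therefore described the sets as wholes and not every promoter in them.

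At least 150 bp of a promoter window was covered by 128 EoVP16-absent sites and by 2137 EoVP16-present sites, counting each window once. The median window held 5 CG at EoVP16-absent sites (interquartile range 3 to 9) and 20 CG at EoVP16-present sites (12 to 28). The median over all 32851 windows of the table was 7. Windows with 10 or more CG made up 24.2% of those at EoVP16-absent sites (31 of 128) and 83.3% of those at EoVP16-present sites (1780 of 2137). The difference was -59.1 percentage points (95% Newcombe interval -65.8 to -50.8). All windows stood between them at 43.5%.

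Sites in the EoGFP list alone also lacked EoVP16, but their 138 windows had a median of 17 CG, and 76.1% of them had 10 or more. The share in EoVP16-absent windows minus that in EoGFP-only windows was -51.9 percentage points (-61.0 to -40.6). Among sites without EoVP16, windows with an EoV5 peak thus held fewer CG than windows without one. CG content also moved with height: among windows of both sets split by EoV5 pileup, the lowest of 3 equal groups (61 to 74 fragments) had a median of 10.5 CG in 30 EoVP16-absent windows and 21 in 725 EoVP16-present windows. In the highest group (96 fragments and over) the medians were 4 in 77 and 17 in 678. The mean of the differences within 5 equal groups of EoV5 pileup was -49.4 percentage points (-58.8 to -40.0).

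**Figure D1:**
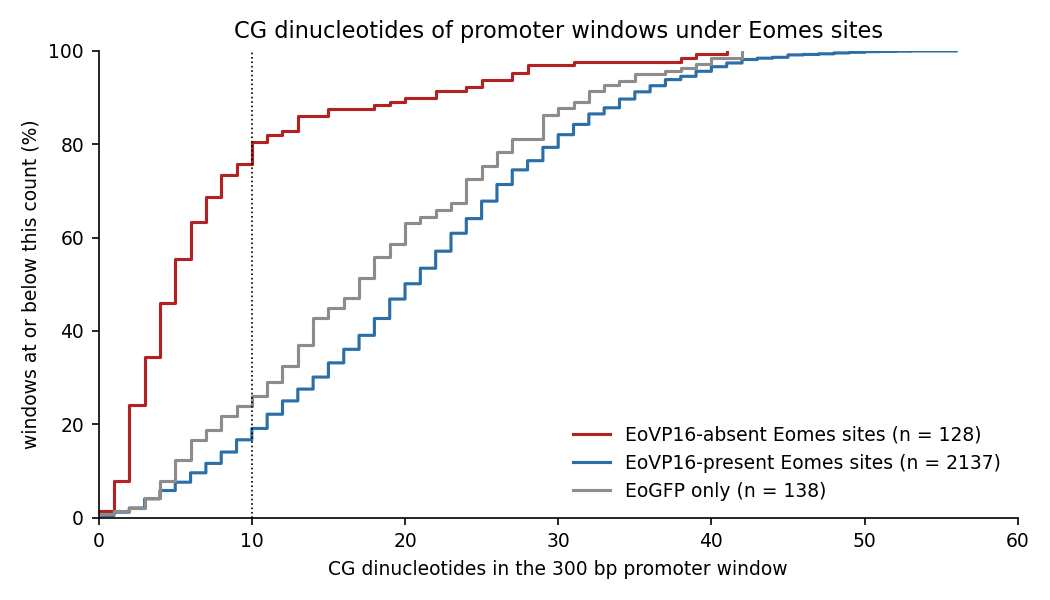
Cumulative share of promoter windows (y axis, %) by their number of CG dinucleotides (x axis, count per 300 bp window) for EoVP16-absent sites, EoVP16-present sites and sites in the EoGFP list only; the dotted line is at 10 CG. The curve of EoVP16-absent windows stands to the left, with a median of 5 CG, against 20 for EoVP16-present windows and 17 for EoGFP-only windows.

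Fewer of the EoVP16-absent windows belonged to coding genes, 51.6% (66 of 128), against 87.5% (1870 of 2137) of EoVP16-present windows. The share over all windows was not computed, so which set departs from it cannot be said. The 32851 windows of the table included those of 17492 coding genes. Most of the tallest were windows of such other genes: 3 of the 5 tallest EoVP16-absent sites touching any window were at the predicted genes Gm10610 (EoV5 pileup 672, 1 CG), Gm46914 (594, 7 CG, with 20 bp of the window covered) and Gm13982 (485, 5 CG). Within promoters of coding genes the difference in the share with 10 or more CG was -51.1 percentage points (-61.7 to -39.2). The median G+C content was 52.2% in EoVP16-absent windows and 61.0% in EoVP16-present windows. The GC box GGGCGG, the letters bound by Sp1-type factors, was found on either strand in 25.0% and 65.5% of them, a difference of -40.5 points (-47.5 to -32.1), with 35.7% over all windows.

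The T-box letters differed less. AGGTGT, searched on both strands, was in 19.5% of EoVP16-absent windows (25 of 128) and 13.2% of EoVP16-present windows (282 of 2137), with 13.7% over all windows. The difference of 6.34 percentage points (0.21 to 14.2) was not seen among windows with under 10 CG, where the shares were 20.6% (20 of 97) and 20.2% (72 of 357), a difference of 0.45 points (-7.73 to 10.3). The longer AGGTGTGA, which contains AGGTGT, was in 2.34% (3 of 128) and 1.31% (28 of 2137), with 1.28% over all windows. Its difference of 1.03 points (-0.61 to 5.37) had an interval that included 0.

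The 3 EoVP16-absent windows with AGGTGTGA are shown as 30-base stretches, since they hold the letters most like the full T-box element. They lay at Dctd, which encodes dCMP deaminase (chr8:48098952-48098981), and at the predicted genes Gm31871 (chr9:32594390-32594419) and Gm40740 (chr10:93126259-93126288), each on the plus strand of the genome, which is also that of the gene. Capitals mark the match, which at Gm31871 reads as its reverse complement. Their EoV5 pileups were 108, 112 and 124. These are below the median of all EoVP16-absent sites given further on. A match is a description of the letters and not a measured contact.
Dctd: atcgcactctcAGGTGTGAactcgctatct
Gm31871: tgccttgcatgTCACACCTccctcagagtt
Gm40740: cttgttggaatAGGTGTGAcctggtaagag

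Of the other letters searched on both strands, 2 were more frequent in EoVP16-absent windows. AGATAA, the core read by Gata factors, was in 15.6% (20 of 128) and 6.60% (141 of 2137), a difference of 9.03 points (3.63 to 16.4), with 11.2% over all windows. CAGAC, a short Smad element, was in 60.9% and 49.6%, a difference of 11.3 points (2.43 to 19.6), with 49.6% over all windows. For AATNNACA (Foxh1), TGTTTAC (forkhead), ATTTGCAT (Oct) and CTTTGA (Tcf/Lef), the intervals of the differences included 0. These 9 sets of letters were searched in the same windows, no adjustment was made for their number, and the AGATAA and CAGAC comparisons were not repeated within windows of low CG.

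EoVP16-absent sites seldom lay near either end of a coding gene. By peak midpoint, a coding gene began or ended within 1 kb of 236 of 6294 EoVP16-absent sites (3.75%, 3.31 to 4.25) and 2604 of 10924 EoVP16-present sites (23.8%, 23.0 to 24.6). The difference was -20.1 percentage points (-21.0 to -19.2), and among sites with an EoV5 peak above the list's median pileup it was -8.60 points (-9.49 to -7.70). EoGFP-only sites stood between, at 13.1%. Of sites in all 4 lists, 45.9% lay at gene ends, as did 54.8% of sites shared by EoGFP and EoVP16 alone. The lists that made the rule differed in the same respect: gene ends held 27.7% of all EoGFP peaks, 16.1% of all EoV5 peaks and 27.9% of all EoVP16 peaks. How much of the difference comes from the make-up of these lists was not tested.

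The shortfall was at the start of transcription and not at the other end of genes. The gene strand was known from the promoter table for 6033 EoVP16-absent and 10620 EoVP16-present sites on the chromosomes it covers. A coding gene's start lay within 1 kb of 1.38% of EoVP16-absent sites (83) and of 18.6% of EoVP16-present sites (1980), among genes with both ends known, a difference of -17.3 points (-18.1 to -16.5). Sites near the other end only made up 1.72% (104) and 1.23% (131), a difference of 0.49 points (0.11 to 0.90) in the opposite direction. The median distance to the nearest coding start was 55164 bp for EoVP16-absent sites and 26983 bp for EoVP16-present sites. Both medians include the sites within 1 kb of a coding start, 1.66% and 21.4% of the sets. Medians with those sites left out were not computed.

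**Figure D2:**
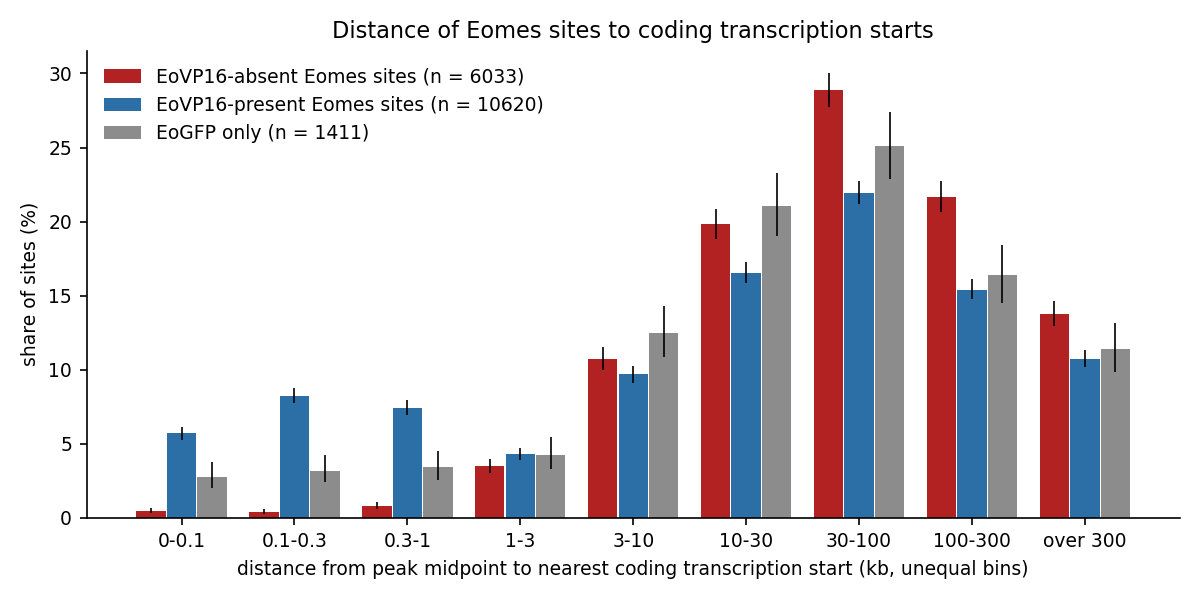
Share of sites (y axis, %) by distance from the peak midpoint to the nearest coding transcription start (x axis, kb, unequal bins) for EoVP16-absent sites, EoVP16-present sites and EoGFP-only sites, with 95% Wilson intervals. EoVP16-absent sites fall below the others in the bins under 1 kb (0.45% in the first bin, against 5.71% of EoVP16-present sites). Each set has its largest share at 30 to 100 kb (28.9% of EoVP16-absent, 22.0% of EoVP16-present and 25.1% of EoGFP-only sites).

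Elsewhere, EoVP16-absent sites were spread over genes much as EoVP16-present sites were. Inside coding genes lay 49.6% of EoVP16-absent and 38.3% of EoVP16-present sites, and outside lay 46.6% and 37.9%. Leaving gene ends out, 51.6% (3124 of 6058) and 50.2% (4179 of 8320) were inside genes, a difference of 1.34 points with an interval that included 0 (-0.32 to 2.99). By chromosome, EoVP16-absent sites made up 46.2% of both sets together on chromosome 18 and 23.1% on chromosome X. On the other autosomes this share lay between 32.8% (chromosome 11) and 41.3% (chromosome 12). Chromosome X held 49 EoVP16-absent sites (0.78%) and 163 EoVP16-present sites (1.49%), a difference of -0.71 points (-1.02 to -0.39).

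The EoVP16-absent sites were close to EoVP16-present sites in median EoV5 pileup. Their EoV5 pileup had a median of 132 fragments (interquartile range 95 to 197, highest 1640), and that of EoVP16-present sites was 128 (84 to 224, highest 3296). The median of the whole EoV5 list was 99, and 71.4% of EoVP16-absent sites stood above it. That list also holds peaks that overlap no EoGFP peak, which the rule left out, so this comparison is not independent of the rule. The nearly equal medians hid opposite orders by location. At gene ends the medians were 107 and 82, inside genes 127.5 and 145, and outside genes 138 and 165, with EoVP16-absent sites given first in each pair. EoGFP peaks were narrower at EoVP16-absent sites, with a median of 718 bp (572 to 919), than at EoVP16-present sites, with 884 bp (660 to 1227). The deposited fold enrichment was close to the pileup divided by a constant and gave the same picture, with medians of 18.8 and 18.3.

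The EoVP16-absent share was largest at intermediate EoV5 height. Of the EoVP16-absent and EoVP16-present sites put in 10 equal groups by EoV5 pileup, EoVP16-absent sites made up 25.0% of group 1 (61 to 70 fragments). The share was 47.1% in group 5 (110 to 130) and 22.4% in group 10 (342 and over). The low share in the lowest groups went only partly with location. Inside genes the share was 36.6% in group 1, 52.2% in group 5 and 23.8% in group 10, and outside genes it was 42.4%, 52.1% and 22.5%. At gene ends it stayed between 3.38% and 26.1% in every group. EoVP16-present sites had a median EoVP16 pileup of 63 (49 to 82), against a listing minimum of 36. How many EoVP16-absent sites carried EoVP16 signal under that minimum was not tested.

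**Figure D3:**
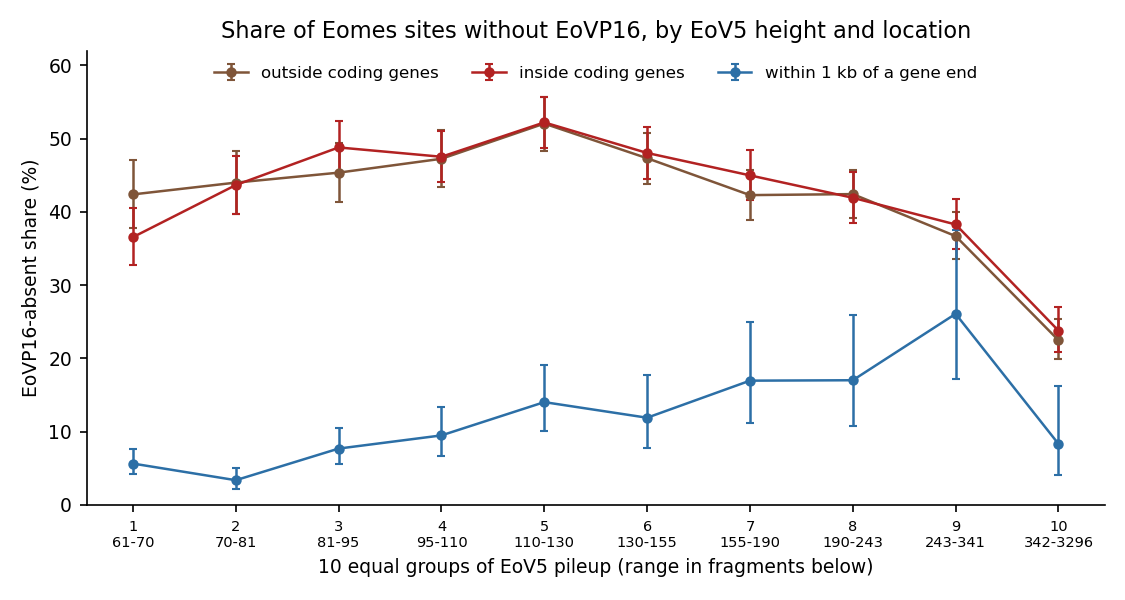
EoVP16-absent sites as a share (y axis, %) of EoVP16-absent plus EoVP16-present sites, in 10 equal groups of EoV5 pileup (x axis, fragments), for sites outside coding genes, inside them and within 1 kb of a gene end, with 95% Wilson intervals. Outside and inside genes the share is highest in group 5, at 52.1% and 52.2%, and is 22.5% and 23.8% in the tallest group, while gene ends stay at or below 26.1%.

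At the threshold of the rule there was little ambiguity from overlap. No EoVP16-absent site overlapped its EoV5 peak by 50 bp or less, and 1 EoVP16-present site overlapped its EoVP16 peak by so little. That site, 59.1 kb from Irx2, shared 4 bp with an EoVP16 peak of 39 fragments. On the other side of the threshold, an EoVP16-absent site inside Atp6v0a1, a proton pump subunit gene, ended 20 bp from an EoVP16 peak. An EoVP16 peak lay within 500 bp of 106 EoVP16-absent sites (1.68%) and within 1 kb of 259 (4.12%). By height, 270 EoVP16-absent sites (4.29%) had an EoV5 pileup of 66 or less, just above the list's minimum. On the other side, 976 EoVP16-present sites (8.93%) had an EoVP16 pileup of 40 or less.

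Most EoVP16-absent sites had no EoVP16 peak within 10 kb. The median gap to the nearest EoVP16 peak was 18498.5 bp, and 33.9% of sites had one within 10 kb. The median gap to the nearest BraGFP peak was 24088 bp. Another EoVP16-absent site lay within 10 kb of 12.4% of them, and an EoVP16-present site within 10 kb of 15.0%. The 6294 sites touched 6288 distinct EoV5 peaks, or 16.5% of that list, of which 18 were touched by more than 1 site. The EoV5 peak of 45 of them (0.715%) also overlapped an EoGFP peak of another set, so its height is not that of the EoVP16-absent site alone. The highest pileup, 1640, is one of these.

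The tallest EoVP16-absent sites lay near genes of varied function. Of the 10 tallest, 9 are described here. The tallest of these, inside Fam167a (chr14:63455940-63457281), had an EoV5 pileup of 1377 (1305.2 to 1451.7) and lay 4.30 kb from an EoVP16 peak. The next, 146 kb from the zinc transporter gene Slc39a11, had 1093. Inside Rbfox3, which encodes the neuronal splicing factor NeuN, a site of 1062 lay 33.9 kb from an EoVP16 peak. Inside Ptprr, a receptor-type tyrosine phosphatase gene, a site of 923 lay 85.1 kb from one. The remaining sites were inside Ofcc1 (909), 60.3 kb from Dtnbp1 (894), inside A4gnt (892), next to Kcnh4 (881), and 1683 kb from Slc39a10 (880). Of these 9, 1 was at a gene end, 5 were inside genes and 3 were outside.

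An EoVP16-absent site had its midpoint within 50 kb of 6667 of 21887 coding genes, the background share of 30.5%. Most of these genes, 4671 (70.1%), had exactly 1 such site, and 595 had 3 or more. EoVP16-absent sites rarely stood at genes without any EoVP16 binding. An EoVP16 peak lay within 50 kb of 6348 of the 6667 genes (95.2%), against 84.2% of all coding genes. An EoVP16-present site lay within 50 kb of 68.5% of the 6667, against 55.3% of all coding genes. Gene length moved with these counts: the median was 28.4 kb for genes with a site and 17.2 kb for all coding genes. The share with an EoVP16-absent site was 16.7% in the shortest 4378 genes and 49.1% in the longest 4378. The share with an EoVP16-present site also rose, from 35.61% to 67.15%.

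The genes with most EoVP16-absent sites were long. Sdk1, an adhesion molecule of the immunoglobulin superfamily whose gene spans 974 kb, had 13, with EoV5 pileups between 68 and 227. Cdh13, the GPI-anchored T-cadherin (1185 kb), had 11, of which the tallest was 764. That EoV5 peak also overlapped the neighbouring EoVP16-present site, and the next tallest was 391. Nav2 (651 kb), a neuron navigator gene, had 10. The lipid raft protein gene Rftn1 stood apart in this group, with 9 sites at a span of 197 kb and only 1 EoVP16-present site. Its sites had pileups of 100, 91, 266, 493, 169, 243, 196, 176 and 358 from low to high coordinate. Trpm3, a cation channel gene, had 9, and Bcas3, Ryr2, Ptprn2 and Dock1 had 7 each.

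Among the gene lists, those of the Wnt, Nodal and BMP pathways stood highest. A list's count is set beside the background of 30.5%, and no list was tested for enrichment. An EoVP16-absent site lay within 50 kb of 9 of 15 Wnt pathway genes (60.0%), 8 of 15 Nodal and activin pathway genes, 8 of 15 BMP pathway genes (53.3% each), 8 of 16 FGF pathway genes, 8 of 16 anterior mesoderm and heart genes and 6 of 12 trophoblast genes (50.0% each). Definitive endoderm genes followed with 7 of 16 (43.8%). Near the background were primitive streak genes with 5 of 15 (33.3%), pluripotency genes with 5 of 16, T-box genes with 5 of 17, and primitive endoderm and epithelial-mesenchymal transition genes with 4 of 14 each. Liver and skeletal muscle genes, taken as unrelated controls, had 4 of 12 each (33.3%). Of the 4 muscle genes, Myh1, Myh2 and Myh4 shared 1 site, and the other was Myog. Lowest were corepressor and coactivator genes with 4 of 16, epiblast genes with 3 of 13, presomitic mesoderm and Notch genes with 3 of 14 and neural plate genes with 3 of 16 (18.8%). Over all lists, each gene once, it was 86 of 231 (37.2%). EoVP16-present sites were near 14 of 15 genes in each of the Wnt, Nodal and BMP lists (93.3%), 13 of 15 primitive streak genes and 15 of 16 definitive endoderm genes, with 55.3% over all coding genes, so these pathway lists stood high for both sets. The median number of EoVP16-absent sites per gene was 1 in the Wnt, Nodal and BMP lists and 0 over all coding genes. Median gene length was 36.9 kb in the Wnt list, 27.9 kb in the Nodal list and 10.7 kb in the BMP list, against 17.2 kb over all coding genes. Neighbouring genes can share a site, and a site counted for a gene can lie nearer to another gene or inside it.

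**Figure D4:**
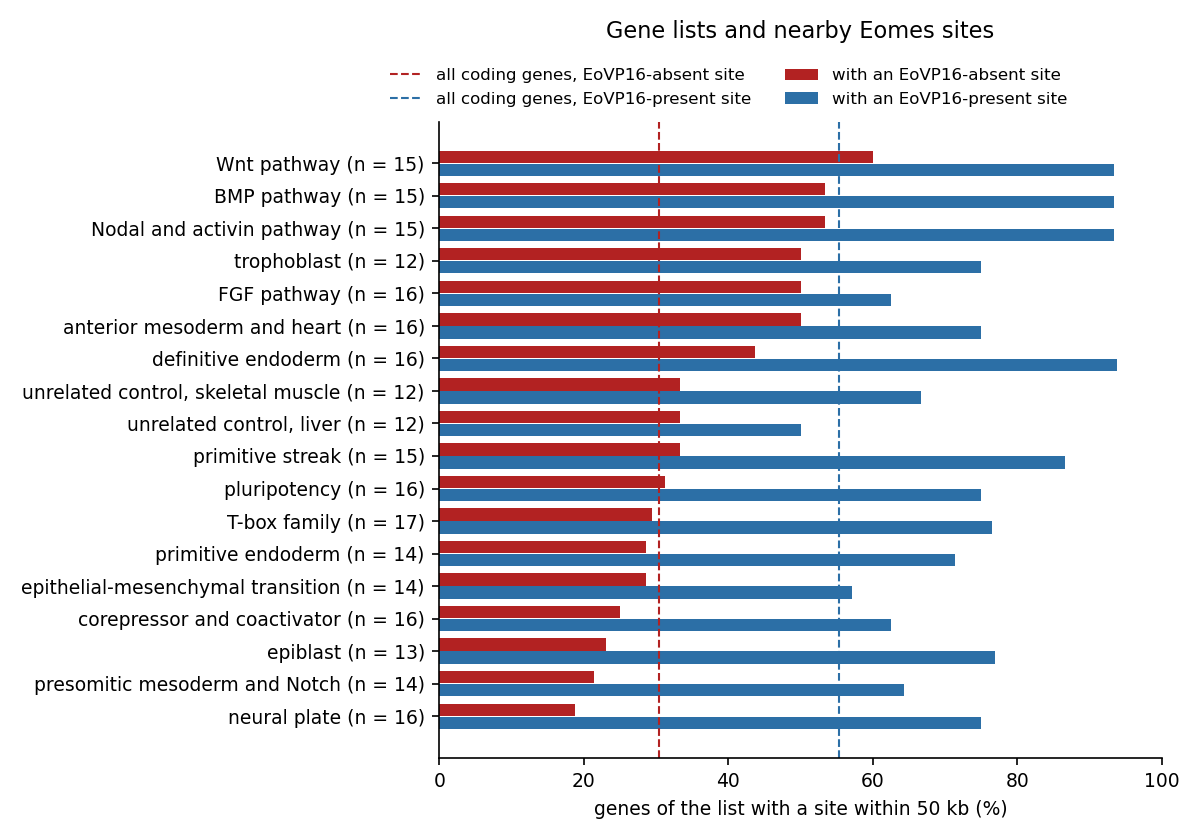
Share of the genes of each list (x axis, %) with an EoVP16-absent site or an EoVP16-present site within 50 kb, for 18 gene lists (y axis, number of genes in brackets); dashed lines give the share of all coding genes, 30.5% and 55.3%. The Wnt, BMP and Nodal lists have the highest EoVP16-absent shares, at 60.0%, 53.3% and 53.3%, and the neural plate list the lowest, at 18.8%.

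In the primitive streak list the share with an EoVP16-absent site, 33.3%, was near the background and equal to that of each control list. Mixl1, a homeobox gene of the streak, had 5 EoGFP peaks within 50 kb, of which 2 were EoVP16-absent. The one at chr1:180688225-180688824, 4.52 kb beyond the lower-coordinate end of Mixl1 and inside the neighbouring gene Lin9, had an EoV5 pileup of 340. It was the tallest EoV5 peak of the 5. The other had 173, and the 3 EoVP16-present sites had 273, 178 and 86. Near Gsc, the organizer homeobox gene goosecoid, the EoVP16-absent site at chr12:104491994-104492663 (pileup 347) lay between EoVP16-present sites of 258 and 482. The streak list's other genes with a site were Cer1, Fgf8 and Wnt3.

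In the anterior mesoderm and endoderm lists, Gata6, a zinc finger factor of heart and endoderm, had 3 EoVP16-absent sites, all beyond its higher-coordinate end. Their pileups of 205, 103 and 72 lay at 11.6, 25.7 and 41.7 kb, and the nearest EoVP16 peak was 42.8 kb or more from each. The site over the gene's end was EoVP16-present (EoV5 158, EoVP16 63). Tbx5, the T-box factor of the forming heart and forelimb, had 3 EoVP16-absent sites with low pileups of 86, 64 and 64, of which the tallest covered an end of the gene (chr5:119796282-119796957). No EoVP16 peak lay within 50 kb of Tbx5. Its only other EoGFP peak overlapped BraGFP, and 5 BraGFP peaks stood in the window. Foxa3, a forkhead factor of endoderm, had 2 sites with pileups of 194 and 91, at 1.59 and 2.03 kb from EoVP16 peaks. The site of 194 lay at a gene end, was nearest to Irf2bp1 and was 5.92 kb from Foxa3.

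Signalling genes showed both receptors and feedback inhibitors with such sites. Acvr2b, a type 2 activin receptor, had 3 sites (pileups 176, 104 and 120) between 27.8 and 32.7 kb beyond its higher-coordinate end, all nearer to another gene than to Acvr2b. Skil, the SnoN corepressor of Smad signalling, had 2, with 276 inside the gene and 81 beyond it. Dkk1, a secreted Wnt inhibitor, had 2 sites of 223 and 213, at 2.90 and 35.6 kb from its lower-coordinate end. The gene itself and the other side carried EoVP16-present sites of 135 and 640. Axin2, a scaffold that feeds back on Wnt signalling, had 2 of 177 and 87. The site of 177 lay 62 bp from an EoVP16 peak and shared its EoV5 peak with the neighbouring EoVP16-present site. Fgfr1, an FGF receptor, had a site of 546 (chr8:25491256-25492010), 27.1 kb from its lower-coordinate end, and another of 248. Fgfr2 had sites of 216 and 107. In the BMP list Smad5, a BMP effector, and Bmp7, a ligand, had 2 each, with tallest pileups of 169 and 145.

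**Figure D5:**
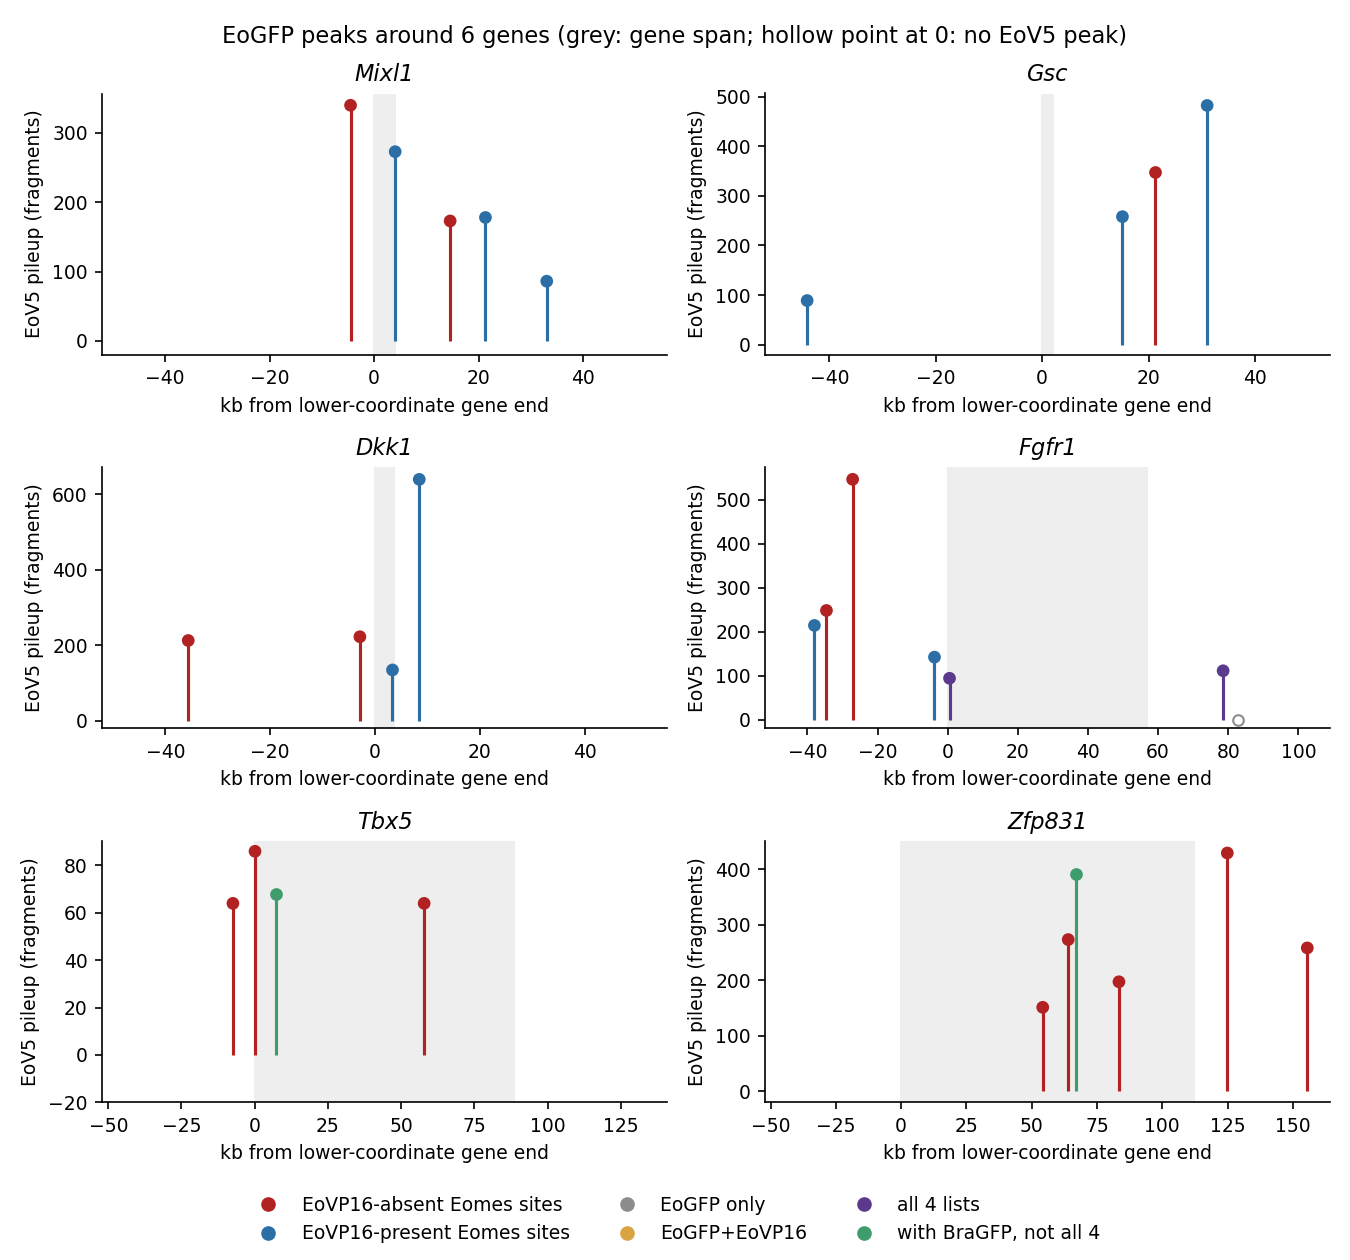
EoV5 pileup (y axis, fragments) of each EoGFP peak against its distance from the gene's lower-coordinate end (x axis, kb) at Mixl1, Gsc, Dkk1, Fgfr1, Tbx5 and Zfp831; grey marks the gene and colour the lists that share the peak. EoVP16-absent sites stand among EoVP16-present ones at Mixl1 (340 and 173), Gsc (347), Dkk1 and Fgfr1, whereas Tbx5 and Zfp831 have no EoVP16-present site.

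Adhesion, pluripotency and chromatin genes gave further examples. Cdh1, E-cadherin, had 4 EoVP16-absent sites with pileups of 226, 297, 134 and 127, of which the first 2 were nearer to its neighbour Cdh3. Cdh1 also had 6 EoVP16-present sites. Cdh2, N-cadherin, had 2 (tallest 216). Dnmt3a, a de novo DNA methyltransferase, had 4, with 86, 152 and 222 inside the gene and 294 beyond it, and 1 EoVP16-present site. Peaks in all 4 lists also lay inside Dnmt3a, with EoVP16 pileups of 61 and 286. Prdm14, a pluripotency and germ cell regulator, had 2 (195 and 143) and no EoVP16-present site, with 1 EoVP16 peak within 50 kb. Tfcp2l1, a naive pluripotency factor, had 2 (199 and 71). The Groucho corepressor genes Tle4 and Tle3 had 3 and 2, with tallest pileups of 222 and 280. Tbx2, a T-box repressor, had 2 of 419 and 118, both nearer to the neighbouring Bcas3. Lef1, a Wnt-responsive transcription factor, had 1 of 101, which lay inside Hadh, and 7 EoVP16-present sites.

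Genes of the other lists follow. The presomitic and Notch genes Rbpj, the Notch effector, and Pcdh8, a protocadherin, had 1 each (150 and 120). The neural plate genes Six3 and Sox1, both transcription factors of the early forebrain or neural tube, had 2 each, with tallest pileups of 113 and 107. The trophoblast genes Tpbpa and Ascl2 had 2 each, with tallest pileups of 113 and 100, all nearer to other genes. Afp, the yolk sac and fetal liver albumin-like protein gene, had 1 of 217. Among the control genes, Ahsg, the liver glycoprotein fetuin-A, had 3 sites (114, 315 and 148) with EoVP16 peaks 28.6 kb or more away. Cyp2e1, a liver cytochrome P450, had 1 of 579, which lay inside Zfp941. The skeletal muscle myosin genes Myh1, Myh2 and Myh4 shared 1 site of 180, which lay inside Myh4.

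In 319 of the 6667 genes (4.78%) no EoVP16 peak lay within 50 kb. The 3 of these with most sites were chosen after their values were seen. Zfp831, a zinc finger gene, had 5 EoVP16-absent sites with pileups of 151, 273, 197, 429 and 258, the nearest EoVP16 peak being 53.0 kb or more from each. The other EoGFP peak there, of 392, overlapped BraGFP. Fam189a2 had 4 lower sites (81, 121, 65 and 143), and Cyp8b1, a bile acid synthesis enzyme, had 3 (78, 72 and 386). All of the Cyp8b1 sites were nearer to another gene, Ackr2 or Gask1a.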

How the data were processed

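The peak lists of EoGFP, EoV5, EoVP16 and BraGFP were used, 4 in all. RNA-seq, ATAC-seq, H3K27ac, input and undosed libraries were not analysed here. The members and lists were chosen with earlier results of these data known. The submitters' processing notes name the mm10/GRCm38 build, MACS2 2.1.1.20160309.4 and Bowtie2 2.3.4. They also name deepTools 3.0.2, SAMtools 1.3.1 and bedtools 2.27.0 as well as Picard 1.56.0, in no stated order. In the deposited EoV5 and EoVP16 lists signal means fragments stacked at a peak's summit (pileup), not scaled to depth. The ratio column, also deposited, gives fold enrichment there. The authors' −log10 p and q columns were not used. The EoGFP and BraGFP lists hold positions only, pooled over 2 libraries in a way not given in the sources used here.

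Peaks off the 21 assembled chromosomes (4 EoGFP, 7 EoV5, 6 EoVP16, 7 BraGFP) and repeated entries (12, 46, 26 and 4) were dropped. Sites with several EoV5 peaks took the highest pileup. Genes (21887 coding, GRCm38.p6) and promoter windows (32851, none on chromosome 18) came from RefSeq tables. 17492 coding genes had a window. Shares carry 95% Wilson intervals, differences of shares 95% Newcombe score intervals and pileups exact 95% Poisson intervals (Python 3.11.15, SciPy 1.17.1). Overlaps, gaps and gene-end locations were checked on simulated peaks, and the Newcombe interval on simulated counts. Planned motif and G+C counts around summits need a genome sequence, not used here, and promoter windows were described instead, as the design allowed. Named genes were those nearest the 10 tallest sites, the 10 with most sites within 50 kb, the 2 with most sites in each of 18 lists, and those whose promoter lay under the 5 tallest sites at promoters. Other genes, such as those whose sequences are shown, were added to illustrate a set. Results at 2 of the genes this rule gives are not reported here.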

Additional observations from a re-analysis of the deposited data

How the results depend on the processing

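The settings below changed 1 choice at a time. Those for CG content, AGGTGT, promoters of coding genes, any overlap with a window and the counting of starts were chosen after seeing the data. The number of EoVP16-absent sites was 10078 when only EoVP16 peaks above the median pileup counted as present, and 1872 among the wider 50% of EoGFP peaks. The other settings gave between 4497 and 6318. The difference in median EoV5 pileup was 4 fragments (132 at EoVP16-absent and 128 at EoVP16-present sites) and turned to -21 (133 and 154) away from gene ends. Coding genes with a site numbered 3300 within 10 kb, and 9756 within 100 kb. The AGGTGT difference had an interval that included 0 in promoters of coding genes (2.55 percentage points, -4.15 to 12.9), within 5 equal groups of EoV5 pileup (7.31, -0.99 to 15.6) and in windows under 10 CG (0.45, -7.73 to 10.3). The cause was not tested. The gene-end difference lay between -22.2 and -8.60 points, and the difference in windows with 10 or more CG between -59.1 and -40.2, with intervals below 0 in every setting run. The AGGTGTGA difference kept an interval that included 0 and the G+C difference lay between -9.33 and -7.67 points in every setting run.

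Motif and G+C settings that need 100, 200 or 500 bp of genome sequence around summits were not run. No paired analysis was possible because each construct has a single peak list and no list carries a replicate number. Absence rests on a list whose minimum pileup is 36 fragments in 1 library of unknown depth, so weaker EoVP16 binding at these sites was not detectable, and the construct, its level and its library cannot be told apart.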
